A study of Caenorhabditis elegans with 2 samples.

Results

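RCOR-1::eGFP peaks on the X chromosome that lie outside tRNA genes are described here from ChIP-seq of whole young adult Caenorhabditis elegans. The worms were of strain RW12222, which carries the insertion st12222[rcor-1::TY1::EGFP::3xFLAG] on chromosome I. They were synchronised by starvation at the first larval stage after bleaching and were collected as young adults aged 65 hours. Chromatin was sheared by sonication to 200 to 800 bp and precipitated with an antibody against GFP. There was 1 group with 2 biological replicates. The fusion is made from the gene's own locus and whole animals were used, so peaks of different tissues cannot be told apart. The labels do not record sex, and ChIP gives no expression values with which to check the tissues present.

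The members are the peaks of the conservative list, made between both replicates, that lie on X with a summit more than 500 bp from the 5' end of every annotated tRNA gene. This rule kept 224 of the 2344 peaks in the list. The list has 2324 peaks on nuclear chromosomes and 383 on X, of which 159 were left out as peaks at tRNA genes. X carries 276 tRNA genes. Members were thus chosen by their rank in these libraries, and the signal of a peak, its place in a list and the number of peaks on X are given as descriptions with no test. Position relative to genes and DNA sequence played no part in the choice of members, apart from the distance to tRNA genes, and these were tested. The sequences and tests were themselves chosen with earlier results of these data known. Their p-values are thus not those of measures fixed before the data were seen.

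RCOR-1 belongs to the CoREST family of corepressors, which in animals link histone deacetylases with LSD1-type histone demethylases. The X chromosome of C. elegans is the target of dosage compensation, in which a condensin-like complex binds both X chromosomes of hermaphrodites and lowers their transcription. The complex is loaded at recruitment sites on X that share a short GC-rich sequence, with SDC-2 needed for X binding, and it then spreads along the chromosome. The X is also known for holding few genes that are strongly active in the germline.

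The strongest X peaks were mostly far from genes' 5' ends and many carried the core of the recruitment sequence, GCGCAGGG. The core was found in 14 of the 224 X peaks within 100 bp on either side of the summit, on either strand. The copies in the 6 strongest of these peaks are shown because they are the strongest peaks that hold it. They were read from the RefSeq genome of build WBcel235 (ce11), each turned so that the core reads 5' to 3' and stands in capitals, with 16 bases on either side.
chrX:11094109-11094148, minus strand: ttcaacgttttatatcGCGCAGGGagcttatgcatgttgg
chrX:11094210-11094249, minus strand: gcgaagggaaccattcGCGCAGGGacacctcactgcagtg
chrX:6296532-6296571, plus strand: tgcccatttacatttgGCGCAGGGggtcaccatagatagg
chrX:6296560-6296599, plus strand: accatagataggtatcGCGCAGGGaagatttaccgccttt
chrX:4209250-4209289, minus strand: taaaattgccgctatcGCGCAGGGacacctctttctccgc
chrX:2997107-2997146, minus strand: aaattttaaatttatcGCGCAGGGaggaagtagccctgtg
chrX:14525884-14525923, minus strand: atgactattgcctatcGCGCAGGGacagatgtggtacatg
chrX:806658-806697, plus strand: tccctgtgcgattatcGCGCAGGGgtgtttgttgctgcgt
chrX:806734-806773, plus strand: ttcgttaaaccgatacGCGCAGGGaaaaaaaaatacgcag

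Among all 17 copies in the 14 peaks, the flanking bases were uneven. T at the second base before the core was found in 13 of 17 copies, and so was C at the base just before it. A followed the core in 13 of 17. The letters TATC stood directly before the core in 7 of the 17 copies, 6 of which are among those shown. The copies were read on the plus strand in 10 cases. Their centres lay a median of 22 bp from the summit and at most 80 bp away.

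Peaks with the core were a much larger share of X peaks than of any other set of regions. The core was present in 14 X peaks (6.25%, 95% Wilson interval 3.76 to 10.2%) and in 7 of 1796 autosomal peaks outside tRNA genes (0.390%, interval 0.189 to 0.802%). The log2 odds ratio was 4.04 ± 0.66 (SE), with an adjusted p of 7.65e-09 by a two-sided Fisher's exact test, adjusted by the Benjamini-Hochberg method over 23 measures. The autosomal peaks with the core were not like those on X in place. Of the 7, 5 lay on chromosome III and none was away from a 5' end. On X, 13 of the 14 were more than 500 bp from any 5' end counted. Here and below, the 5' ends of pseudogenes and piRNA genes were not counted.

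The second comparison was with candidate regions, the regions of the authors' ranked list that overlap no peak and lie outside tRNA genes. Most missed the authors' reproducibility threshold, but 10 of those on X passed it and were left out of the peak list. Of 7877 X candidate regions, 16 held the core (0.203%, interval 0.125 to 0.330%), and the log2 odds ratio of X peaks against them was 5.04 ± 0.53 (adjusted p = 4.61e-14, Fisher's exact test). On the autosomes 29 of 34536 candidate regions held it (0.0840%). The difference between peaks and candidate regions was larger on X than on the autosomes by 2.74 ± 0.79 on the log2 odds scale (adjusted p = 0.00115, Wald test of the difference, n = 224 X peaks). Both the share in X peaks and its gain over candidate regions thus stood above those of the autosomes.

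Across the whole X chromosome GCGCAGGG occurs 81 times, and 17 of these copies (20.99%) were within 100 bp of a member's summit. A further 16 copies were in candidate regions. Of 88153 windows of the same length laid along X, 0.0851% held the core. The autosomes hold 233 copies, of which 7 (3.00%) were in a peak. Most copies on X were thus in no peak, and the copies in peaks were a larger part on X than on the autosomes.

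The shorter form CGCAGGG, which includes every copy of the core, was present in 18 X peaks (8.04%) and 1.503% of autosomal peaks. Its log2 odds ratio between these was 2.53 ± 0.45 (adjusted p = 1.41e-06, Fisher's exact test). With 1 mismatch allowed in the 8 letters, a looser reading chosen after the data were seen, 44 X peaks (19.6%) matched. The same reading matched 9.63% of autosomal peaks and 4.72% of X candidate regions. The loose reading includes every exact core, so it cannot be the rarer of the 2 in any set.

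The signal of the 14 peaks with the core ranged from 82.2 to 481 with a median of 271. The other 210 X peaks had a median of 78.6 and reached 493. Each of the 14 was in replicate 1's own peak list and 12 were in that of replicate 2. Of all X peaks, 54.5% and 45.1% were in these lists. Of the 89 X peaks above the median signal of nuclear peaks, with or without the core, 89.9% and 91.0% were. The signal of the 14 was 31.2 to 191 in replicate 1 and 40.2 to 265 in replicate 2. The lowest of them were ordinary X peaks, and the sets with and without the core overlapped over most of their range.

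The strongest X peaks are described together as the 20 with the highest signal, a number chosen after the signals were seen. They ran from 191 to 493 with a median of 329, and the next peak stood at 186, so there was no break in signal at this number. In replicate 1 these 20 had signals of 80.7 to 197 (median 144), and the other 204 had a median of 35.9 and reached 84.9. In replicate 2 the 20 had signals of 107 to 300 (median 185), and the others had a median of 43.02 and reached 111. The sets overlapped slightly in both replicates, at the boundary alone. All 20 were in both replicates' own lists, as were 79 of all 224 X peaks and 74 of the 89 above the median signal of nuclear peaks.

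Of these 20, 19 were away from any 5' end, 9 held the core, 11 held CGCAGGG and 15 held a sequence within 1 mismatch of the core. In the next 20 peaks by signal, 7 were away from 5' ends and 1 held the core. In the 20 strongest autosomal peaks, 4 were away from 5' ends and 0 held the core. The X members made up 9 of the 50 strongest nuclear peaks and 14 of the 100 strongest. Among all nuclear peaks, those at tRNA genes included, the members were 224 of 2324. The median gap between neighbours along X was 843 kb among these 20 and 45.5 kb among all members, which follows from their number.

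**Figure D1:**
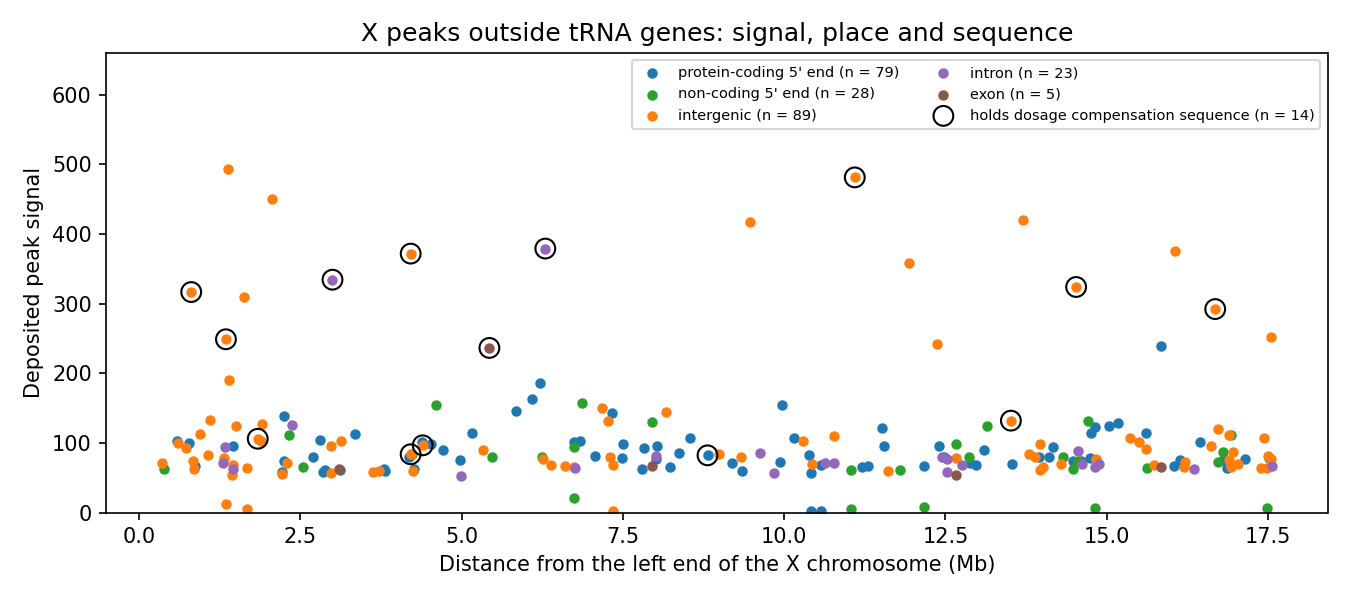
Deposited peak signal (linear axis) of each of the 224 X peaks by its distance from the left end of X in Mb, coloured by the place of the summit, with a ring around the 14 peaks that hold GCGCAGGG. The 20 strongest peaks, from 191 to 493, are spread along the chromosome and all but 1 are away from 5' ends, while most peaks lie near the median of 80.1.

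The strongest X peak, chrX:1375118-1375289, had a signal of 493 over both replicates, and replicates 1 and 2 gave 197 and 300. The third, chrX:2057907-2058110, reached 450, and replicates 1 and 2 gave 169 and 273. Neither holds the core, and both lie entirely in sequence that the RefSeq genome marks as repeats, 3210 and 6179 bp from the nearest protein-coding 5' ends, those of fbxa-190 and Y102A11A.1. Their sequence is a run of heat shock elements, the inverted GAA units bound by heat shock factor. The summit with 50 bases on either side is shown for each, plus strand of WBcel235, with each match in capitals (overlapping matches joined). A match is the letters TTC, GAA and TTC in a row with 2 bases of any kind between neighbours, on either strand. A peak of rank 98 (chrX:13795389-13795668) has the same kind of sequence and is shown last.
chrX:1375172-1375272: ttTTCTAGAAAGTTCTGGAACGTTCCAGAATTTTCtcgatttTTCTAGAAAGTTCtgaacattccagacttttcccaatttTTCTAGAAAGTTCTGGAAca
chrX:2057953-2058053: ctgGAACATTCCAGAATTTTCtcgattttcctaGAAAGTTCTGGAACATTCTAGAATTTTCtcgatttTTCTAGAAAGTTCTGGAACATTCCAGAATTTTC
chrX:13795479-13795579: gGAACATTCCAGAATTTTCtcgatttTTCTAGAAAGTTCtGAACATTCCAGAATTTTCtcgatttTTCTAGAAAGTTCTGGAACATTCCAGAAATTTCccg

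This element was searched after the sequences had been read, so its counts carry no test. The 100 bp on either side of the summit held 16 matches in the strongest peak, 23 in the third and 16 in the peak of rank 98. These 3 were the only X peaks with a match (1.34%). A match was present in 58 autosomal peaks (3.23%), 0.660% of X candidate regions and 1.497% of autosomal candidate regions, and its share in X peaks was below that in autosomal ones. The peak of rank 98 had a signal of 83.7, and replicates 1 and 2 gave 29.99 and 54.01, far under the other 2. Reads from repeats can be placed at several copies, and how the authors treated such reads is not given in the sources used here.

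Between these stood the second peak, chrX:11094008-11094368, with a signal of 481, for which replicates 1 and 2 gave 191 and 265. It holds the core at 2 positions and lies between genes, 3996 bp from the 5' end of W02H3.3. The peaks of rank 4 and 5, chrX:13700711-13701005 and chrX:9465753-9465999, had signals of 420 and 417 and hold a sequence 1 mismatch from the core. In replicate 1 they reached 186 and 161, and in replicate 2 210 and 237. The order of these peaks was not the same in both replicates.

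The sixth, chrX:6296411-6296722, also has 2 cores and lies in an intron of mom-1, the Porcupine-type enzyme needed for Wnt secretion. Its signal was 379, and replicates 1 and 2 gave 160 and 193. The seventh, chrX:16056465-16056751, had a signal of 376 and is within 1 mismatch of the core. The eighth, chrX:4209152-4209407, had a signal of 372 (replicates 1 and 2 gave 160 and 215) and holds 1 core. A weaker member with a core of its own (rank 97, signal 83.8) lies 0.560 kb from it, the shortest gap between peaks with the core.

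The peaks of rank 9 to 15 had signals from 358 down to 252. The peak of rank 10, chrX:2996968-2997189, is in an intron of Y41G9A.17 and holds the core. Those of rank 11 (chrX:14525747-14526096), 12 (chrX:806598-806757) and 14 (chrX:16682023-16682202) are intergenic and hold it as well, at 2 positions in the case of rank 12. The peaks of rank 9 (chrX:11937434-11937647), 13 (chrX:1627057-1627240) and 15 (chrX:17544479-17544614) are intergenic and 1 mismatch away. Across these 7 peaks, replicate 1 gave 116 to 162 and replicate 2 gave 132 to 188. Each of the 15 strongest peaks was thus either a heat shock element array, a carrier of the core or within 1 mismatch of it. The element and the loose reading were chosen after the data were seen, so this is a description only. It did not extend to all of the 20 strongest. The peaks of rank 17, 18 and 20 were 3, 2 and 3 mismatches from the core and held no heat shock match.

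As a whole, X peaks lay less often at protein-coding genes than autosomal peaks did. The summit was within 500 bp of a protein-coding 5' end in 79 X peaks (35.3%, interval 29.3 to 41.7%) and in 58.3% of autosomal peaks (interval 56.0 to 60.6%). The log2 odds ratio was -1.35 ± 0.21, with an adjusted p of 4.67e-10 by Fisher's exact test. The X peaks were still more often at such 5' ends than X candidate regions, of which 22.7% were (log2 odds ratio 0.90 ± 0.20, adjusted p = 4.46e-05, Fisher's exact test). This rise over candidate regions was smaller on X than on the autosomes by 0.86 ± 0.22 on the log2 odds scale (adjusted p = 0.000242, Wald test, n = 224 X peaks).

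Intergenic here means outside protein-coding gene bodies, which does not exclude pseudogenes or non-coding RNA genes. Intergenic sequence away from 5' ends held 89 X peaks (39.7%, interval 33.5 to 46.3%) and 17.4% of autosomal peaks (interval 15.7 to 19.2%). The log2 odds ratio was 1.65 ± 0.22 (adjusted p = 6.03e-12, Fisher's exact test). X candidate regions were intergenic in 23.2% of cases and autosomal ones in 18.02%. On X the share in peaks was above that in candidate regions (log2 odds ratio 1.13 ± 0.20, adjusted p = 1.73e-07, Fisher's exact test), and the difference from the autosomes was 1.19 ± 0.22 (adjusted p = 3.84e-07, Wald test). With introns and exons included, 117 X peaks (52.2%) were away from 5' ends against 29.9% of autosomal peaks (log2 odds ratio 1.36 ± 0.21, adjusted p = 4.67e-10, Fisher's exact test).

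Inside genes the numbers were small. Introns away from 5' ends held 23 X peaks (10.3%) and 6.74% of autosomal peaks, a difference that did not pass the test (log2 odds ratio 0.69 ± 0.34, adjusted p = 0.127, Fisher's exact test). Exons held 5 X peaks (2.23%) and 5.79% of autosomal peaks (adjusted p = 0.0511, Fisher's exact test), while exons held 24.4% of X candidate regions. The strongest exonic peak, in the polyketide synthase gene pks-1 (chrX:5429490-5429599, signal 236), holds the core.

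Non-coding RNA genes other than tRNA and piRNA genes had a 5' end within 500 bp of 51 X peaks (22.8%) and 20.6% of autosomal peaks. There was no difference by the test (adjusted p = 0.527, Fisher's exact test). Unclassified ncRNA genes accounted for most, with 44 peaks beside some of the 2520 such genes on X. There were 5 peaks at miRNA genes, 4 at snoRNA genes, 1 at an snRNA gene and 1 at a lincRNA gene. With peaks at protein-coding 5' ends counted there, 28 summits were assigned to non-coding 5' ends, and their signals ran from 5.77 to 157.

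Where X peaks did lie at protein-coding genes, they were almost always upstream. The summit was upstream in 75 of 79 (94.9%) on X and in 84.4% on the autosomes (log2 odds ratio 1.63 ± 0.71, adjusted p = 0.0187, Fisher's exact test). The median summit stood at -195 bp relative to the 5' end on X and at -154 bp on the autosomes. This call was lost without either replicate (adjusted p = 0.186 without replicate 1 and 0.115 without replicate 2, Fisher's exact test). The peaks at protein-coding 5' ends had signals from 2.25 to 240, and the strongest intergenic peaks were higher.

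**Figure D2:**
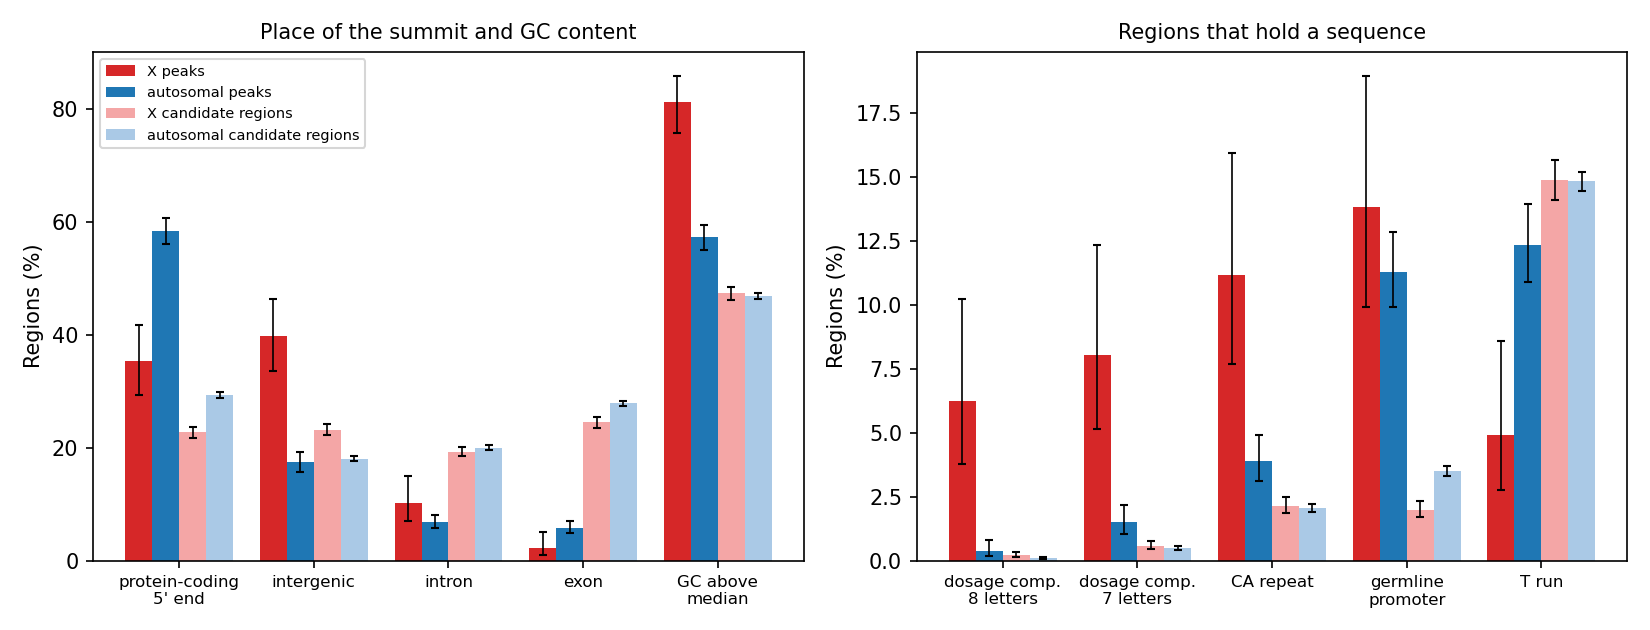
Share of regions (%) by place of the summit and by GC content (left) and by sequence within 100 bp of the summit (right) for X peaks (n = 224), autosomal peaks (n = 1796), X candidate regions (n = 7877) and autosomal candidate regions (n = 34536), with 95% Wilson intervals. X peaks are at 35.3% for protein-coding 5' ends against 58.3% on the autosomes, at 39.7% against 17.4% for intergenic sequence, and at 6.25% against 0.390% for GCGCAGGG, drawn as the 8-letter dosage compensation sequence.

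X peaks were richer in G and C than autosomal peaks and candidate regions. Their median GC content within 100 bp of the summit was 47.8%, against 42.3% in autosomal peaks, 40.3% in X candidate regions and 39.8% in autosomal candidate regions. It was above the median of all nuclear candidate regions in 182 X peaks (81.2%, interval 75.6 to 85.8%) and in 57.2% of autosomal peaks. The log2 odds ratio was 1.69 ± 0.26 (adjusted p = 7.23e-12, Fisher's exact test), and the gain over candidate regions was larger on X than on the autosomes by 1.66 ± 0.26 (adjusted p = 2.43e-09, Wald test). The 14 peaks with the core had a lower median than the members as a whole, 42.8%. Peaks at protein-coding 5' ends had a median of 50.7% and intergenic ones 45.3%.

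Other sequences also differed. The CA repeat CACACACA was present in 25 X peaks (11.2%) and 3.90% of autosomal peaks (log2 odds ratio 1.65 ± 0.35, adjusted p = 9.08e-05, Fisher's exact test), and in 2.15% of X candidate regions. Of these 25, 11 were intergenic, 8 were at protein-coding 5' ends and 1 also held the core. The core was in 6.25% of all X peaks, so an overlap of 1 among 25 does not show that the repeat and the core avoid each other. Among the 20 strongest X peaks 1 held the repeat, and among the other 204 there were 24.

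CTGCGTC, known from germline-active promoters, was in 31 X peaks (13.8%) and 11.3% of autosomal peaks, which did not differ by the test (adjusted p = 0.386, Fisher's exact test). Against candidate regions of X, with 1.98%, the log2 odds ratio was 3.01 ± 0.30 (adjusted p = 2.00e-15, Fisher's exact test). That difference was larger than on the autosomes by 1.19 ± 0.32 (adjusted p = 0.000526, Wald test, n = 224 X peaks). The alternating run GCGCGC was less common in X peaks (8.04%) than in autosomal peaks (15.1%), with a log2 odds ratio of -0.99 ± 0.36 (adjusted p = 0.00833, Fisher's exact test).

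The letters AAGATGG, a YY1-type site, were in 10 X peaks (4.46%) and 1.73% of autosomal peaks (log2 odds ratio 1.46 ± 0.52, adjusted p = 0.0402, Fisher's exact test). Without replicate 1 its adjusted p was 0.560 by the same exact test. The run TTTTTTTT was in 11 X peaks (4.91%) and 12.4% of autosomal peaks (log2 odds ratio -1.39 ± 0.45, adjusted p = 0.00149, Fisher's exact test), and this call was lost without either replicate (adjusted p = 1.00 without replicate 1 and 0.340 without replicate 2, the same test). The GATA, AP-1, CRE, ETS, E-box, Sp1 and B box letters and the GA repeat did not differ between X and autosomal peaks by the test. Of the 23 measures of place and sequence, 11 differed between X and autosomal peaks, 8 higher and 3 lower on X. Against X candidate regions 17 of 23 differed, 13 higher and 4 lower.

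Genes on X were less often marked by a peak than autosomal genes. Of 2731 protein-coding genes on X, 81 (2.97%) had a member within 500 bp of a 5' end, against 1272 of 17242 (7.38%) on the autosomes. These shares follow from which peaks were listed and have no test. X had 12.6 members per Mb, and the autosomes had 16.1 to 26.3 peaks per Mb outside tRNA genes. Of the 8111 ranked regions of X outside tRNA genes, 234 (2.88%) overlapped a peak, against 5.12% on the autosomes. Outside tRNA genes X thus had fewer listed peaks by length, by gene and by ranked region. With peaks at tRNA genes included, this no longer held by length against chromosome V, but it did against the other autosomes. X then had 383 peaks over 17.7 Mb, and chromosome V had 365 over 20.9 Mb. Chromosomes I, II, III and IV had 418, 350, 390 and 418 peaks over 15.1, 15.3, 13.8 and 17.5 Mb.

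The 26 gene lists used here hold 402 X genes, and 15 of them (3.73%) had a member at a 5' end, against the 2.97% of all X protein-coding genes. The listed genes as a whole were thus near the background. The strongest listed gene was hsp-3, an Hsp70 chaperone of the endoplasmic reticulum, whose peak had a signal of 163, and replicates 1 and 2 gave 75.2 and 85.1. Its summit was at -38 bp. The chaperone list had 1 more gene of its 5 on X, the DnaJ protein gene dnj-14 (signal 89.7).

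The dosage compensation and sex determination list had 1 gene of 6, sdc-2, which encodes the protein needed to bring the complex to X. Its peak (chrX:11522120-11522399) had a signal of 122, and replicates 1 and 2 gave 51.5 and 76.3. The summit was at -447 bp relative to the 5' end, near the edge of the 500 bp window. It ranked 43 among the 224 members, above their upper quartile of 107.

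Genes of protein synthesis included rpl-11.2, which encodes a protein of the large ribosomal subunit, at a signal of 138, for which replicates 1 and 2 gave 47.8 and 90.3. The elongation factor gene eef-1A.2 had a signal of 92.9. The ribosomal list has 2 genes on X and the list of translation factors and tRNA synthetases has 3, so each of these is 1 gene of a few. From the germline and oocyte list came puf-9, a PUF-family RNA-binding protein gene (1 of 2), with a signal of 145. The heterochronic list gave alg-1, an Argonaute gene of the miRNA pathway (1 of 4), at 80.4. The splicing factor list gave snrp-40.1, a spliceosome gene (1 of 3), at 66.3. For puf-9 replicate 1 was the higher, at 84.7 against 55.3.

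Of neuronal genes, unc-115, an actin-binding protein gene of axon guidance, had a signal of 108, and glr-6, a glutamate receptor subunit gene, had 102. The glr-6 peak also lies upstream of asg-2. These were 1 of 18 genes for axon guidance and neuronal identity and 1 of 62 for neurotransmission. Among regulators, mdl-1, a Mad-like basic helix-loop-helix gene (1 of 9), had a signal of 100.8, and nhr-1, a nuclear hormone receptor gene (1 of 27), had 78.2. The kinase genes kin-29 (1 of 30 for signalling) and cdk-11.2 (1 of 2 for replication and cell cycle) had 58.7 and 56.2. The respiratory chain list gave sdha-1 (1 of 4), the flavoprotein subunit gene of succinate dehydrogenase, with a signal of 107. These signals lay on both sides of the members' median of 80.1.

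No member was at a 5' end of any X gene of several lists. These were 36 intestinal genes and vitellogenins, 34 neuropeptide and insulin-like genes, 34 chemoreceptor genes, 30 cuticle collagens, 26 homeobox genes, 22 chromatin regulators, 16 muscle genes, 16 F-box and MATH-BTB genes, 14 detoxification genes and 3 C-type lectins. At the background of 2.97% few would be expected in lists of this size. Ranked regions outside tRNA genes, including any that overlap a peak, were also sought at the 5' ends of these genes. They were found at 14 of the 26 homeobox genes, 18 of the 36 intestinal genes and 2 of the 34 chemoreceptor genes. The share over all X protein-coding genes was not counted, so these numbers have no background.

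Outside the lists, and named after the values were seen, several bound genes belong to the secretory pathway. The strongest peak at any protein-coding 5' end on X was that of serp-1.1 (chrX:15841207-15841346), with a signal of 240, for which replicates 1 and 2 gave 107 and 120. The genes uggt-1, a glucosyltransferase of glycoprotein folding, pdi-2 and pdi-6, protein disulfide isomerases, and atf-6, a transcription factor of the endoplasmic reticulum stress response, had signals of 98.6, 98.2, 82.0 and 80.0. A shared peak (signal 100) lay upstream of trap-2 and ile-2. Since these were picked by eye from 81 genes, no count or test is attached to them.

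A smaller share of X peaks than of autosomal peaks was in each replicate's own list. Replicate 1's own list overlapped 122 members (54.5%) and replicate 2's list overlapped 45.1% of them, against 59.3% of autosomal peaks for replicate 1 and 59.3% for replicate 2. Both lists overlapped 79 members (35.3%, autosomes 45.3%) and neither overlapped 80 (35.7%, autosomes 26.7%). Among peaks above the median signal of nuclear peaks, 74 of 89 members were in both. The strongest member in neither list was at F17E5.2 (chrX:12393877-12394156), with a signal of 95.3, for which replicates 1 and 2 gave 50.2 and 39.7.

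Both replicates' ranked lists held 208 members at the summit. Over these, the signals had a Spearman's rho of 0.64, against 0.71 over 1649 autosomal peaks, as a description across regions that were all selected for ranking alike in the replicates. Replicate 2 gave the higher signal in 168 of the 208, with a median ratio of 1.25 over replicate 1, close to the autosomal 1.26. Each replicate's list has its own scale, so this ratio says nothing about binding. The highest ratio, 2.33, was at the miRNA gene cel-mir-8196a (chrX:2328874-2329153, 34.5 in replicate 1 and 80.3 in replicate 2). The lowest, 0.627, was at an intergenic peak at -2579 bp from the 5' end of hda-4 (chrX:16726840-16727119, 72.7 and 45.6).

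**Figure D3:**
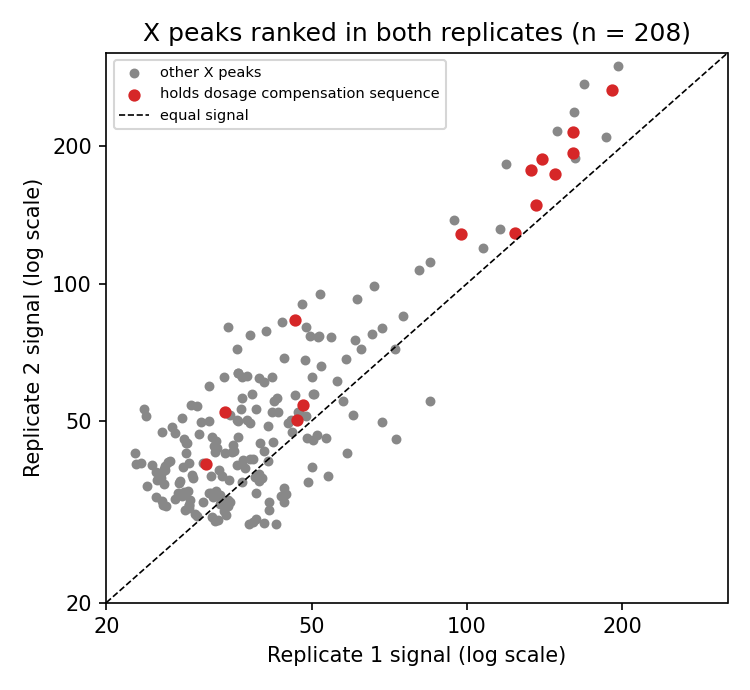
Signal of the 208 X peaks ranked in both replicates, in replicate 1 and replicate 2 on log axes, with the 14 peaks that hold GCGCAGGG in red and a dashed line at equal signal. The 20 strongest peaks are at the upper right, from 80.7 in replicate 1 and from 107 in replicate 2, and overlap there with the other peaks, which reach 84.9 and 111. Of the 208 peaks, 168 lie above the line.

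The limits of the rule are shown by the peaks beside them. The member nearest to the tRNA limit (chrX:14016834-14017113, signal 65.7) was 1030 bp from a tRNA 5' end. The peak just excluded (chrX:8036312-8036559, signal 345) was 326 bp from one, and 2 of the excluded X peaks hold GCGCAGGG. The weakest member had a signal of 2.25, and the strongest X region that missed the authors' reproducibility threshold (chrX:2364807-2365086) had a signal of 100.01, and replicates 1 and 2 gave 10.04 and 82.3. There were 10 X regions past that threshold that the list leaves out, the strongest (chrX:15811011-15811138) with a signal of 1528, and the reason is not stated. They were among the X candidate regions here.

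At the low end, 10 members had a signal of at most 21.1, and the next stood at 51.8. Of these 10, 9 had no region at the summit in either replicate's own ranked list. Members were unevenly spaced, with 10 neighbouring pairs under 1000 bp apart. Such neighbours share sequence context, and all regions come from the same 2 libraries, so p-values over regions measure the spread over sites and not between animals.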

How the data were processed

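Per the deposited file notes and the labels, reads were aligned to ce11, and the authors ranked regions by irreproducible discovery rate (IDR) between replicates and within each. No source used here names the aligner or peak caller. The authors' signal has no defined unit, and summits are their deposited offsets in bp. The deposited ranked list holds the −log10 of the IDR, with a threshold of 2. A control experiment named in the labels was not analysed here, and depth is unknown. Replicate signals come from each replicate's own ranked list at the member's summit, on that list's scale; 2 unnamed columns of per-replicate signal were not used.

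Gene models were Ensembl release 115, and the RefSeq genome was WBcel235. Shares of regions were tested with Fisher's exact test (two-sided; 0.5 added to each cell for odds ratios). Differences of log odds ratios had a Wald test where each cell held at least 5 regions. Adjusted p under 0.05 was called. Overlap meant at least 1 bp, and Wilson intervals cover counting error only. Fisher's exact test and the log odds ratio were tried on simulated independent measures. The Wald test was not simulated, nor were sequences as rare as GCGCAGGG in autosomal peaks, nor measures that overlap. Software was Python 3.11.15, numpy 2.4.6, pandas 2.3.3, scipy 1.17.1 and matplotlib 3.10.9.

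Members, gene lists, sequences and tests were chosen with earlier results of these data known. Named regions were the 15 strongest, up to 3 strongest genes per list, the 6 strongest with GCGCAGGG, the strongest in neither replicate list, those of extreme replicate ratio, and those at the tRNA limit. The heat shock element, the loose core, the set of 20, the secretory genes and other named regions were picked after values were seen. Alternatives used a further list, stronger peaks or candidate regions, each replicate alone, and other windows, tRNA limits and overlaps.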

Additional observations from a re-analysis of the deposited data

Results flagged for a closer look

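In 12 of the 19 measures that could be tested, the difference between peaks and candidate regions was not the same on X as on the autosomes, by the Wald test of the difference of log2 odds ratios. The X difference was larger or more positive for GCGCAGGG (2.74), CGCAGGG (2.28), GC content above the median (1.66), the CA repeat CACACACA (1.57), summits away from any 5' end (1.28), AAGATGG (1.21), intergenic summits (1.19), CTGCGTC (1.19) and introns (0.75). It was lower for the run TTTTTTTT (-1.40), for summits at non-coding RNA 5' ends (-0.93) and for summits at protein-coding 5' ends (-0.86). The values for introns and for TTTTTTTT did not pass the test under several alternatives. Places add up to a whole, so a rise in intergenic summits and a fall at 5' ends are not separate observations, and CGCAGGG includes GCGCAGGG.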

How the results depend on the processing

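No direction reversed under any alternative run. The number of X peaks was 87 for peaks above the median signal and 113 to 132 when 1 replicate's own list was used alone. X genes with a peak numbered 34 above the median signal, 42 with a 200 bp window and 42 to 53 with 1 replicate alone. The count of measures that differed between X and autosomal peaks was 7 above the median signal, and the share of X peaks in both replicate lists was then 83.9%, by the median of the whole list. These 4 alternatives use fewer peaks or a shorter window. The calls for GCGCAGGG, protein-coding 5' ends, intergenic sequence and GC content between X and autosomal peaks held in every alternative run for them, including 1 mismatch. In all, 371 values kept their side of the threshold or stayed close, 31 no longer passed it and 9 counts or shares moved. Those that no longer passed were mainly the T run, the E-box, the YY1-type site, the upstream share and introns, and the cause was not tested. No paired analysis was possible because the series has 1 group. Depth is unknown, so an X region that missed the threshold cannot be called unbound.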
